A study of Homo sapiens with 26 samples.

Results

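Sorted macrophages of digested control mixtures with cardiomyocytes were compared with those of digested control mixtures without them. The labels do not say whether the cell types were joined only for the digestion or had been cultured together before it. The comparison used 6 of the series' 26 samples, 3 digested control libraries of CM+FB+MF against 3 of FB+MF, chosen by their labels, and every gene of their table. The table held 18771 genes, of which 12960 had enough counts to be tested.

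CM stands for cardiomyocytes of the ESI17 human embryonic stem cell line, MF for macrophages of the hES2 line with a wild-type genotype, and FB is taken to mean fibroblasts, although no label writes the word. The labels of all control libraries name digested cells and 40 min of digestion, and give no day of culture. Libraries are numbered as their columns in the deposited table. The enzyme mix held collagenase, hyaluronidase, DNase I, Dispase, a ROCK inhibitor and flavopiridol, an inhibitor of transcription, and was the same in both groups. Cells were then sorted with antibodies to CD14 and CD45, so CD14 and PTPRC (which encodes CD45) belong to the proteins used for the sort. Another control group held macrophages digested alone (MF, n = 3). For reference, macrophages sorted on day 14 from Biowires (engineered cardiac microtissues) of the same mixtures and cardiomyocytes sorted on day 3 from CM+FB Biowires (n = 4) were used. Each cell type came from 1 line, and no label says whether replicates were cultured apart. The p-values therefore measure only how these libraries spread, and that spread may be technical.

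Digestion breaks a tissue into single cells, and a sort then picks cells by surface proteins. Macrophages are professional phagocytes that patrol the heart and clear debris. Cardiomyocytes are long cells filled with sarcomeres, the contractile units built from myosin thick filaments, actin thin filaments, Z-discs and the giant spring protein titin. Genes of the sarcomere are among the most abundant of heart muscle, and their level in the sorted cardiomyocytes is given beside the results.

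Depth ran from 10802612 to 12272562 counts in the CM+FB+MF libraries, from 10275678 to 10829127 in FB+MF and from 10132651 to 12717157 in MF. All 22 macrophage markers passed the filter on low counts, with CD14 at 364 to 402 CPM (read counts scaled to a common library total) and PTPRC at 246 to 272 CPM in the 6 compared libraries, against means of 0.324 and 0.0088 CPM in the sorted cardiomyocytes. CM+FB+MF replicate 2 stood apart. It held 584 CPM of the ribosomal RNA precursor RNA45S5 and 6833 CPM of the nuclear noncoding RNA MALAT1, where replicates 1 and 3 held 4801 and 4299 CPM of RNA45S5 and 18283 and 15453 CPM of MALAT1. The FB+MF libraries lay at 3753 to 4327 CPM of RNA45S5, and MF replicate 3 was low in RNA45S5 as well at 165 CPM. MF replicate 3 was not low in MALAT1, at 14288 CPM beside 19424 and 13682 CPM in MF replicates 1 and 2. The counts of called genes are given with and without replicate 2, and further list members called without it are named beside their lists.

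**Figure D1:**
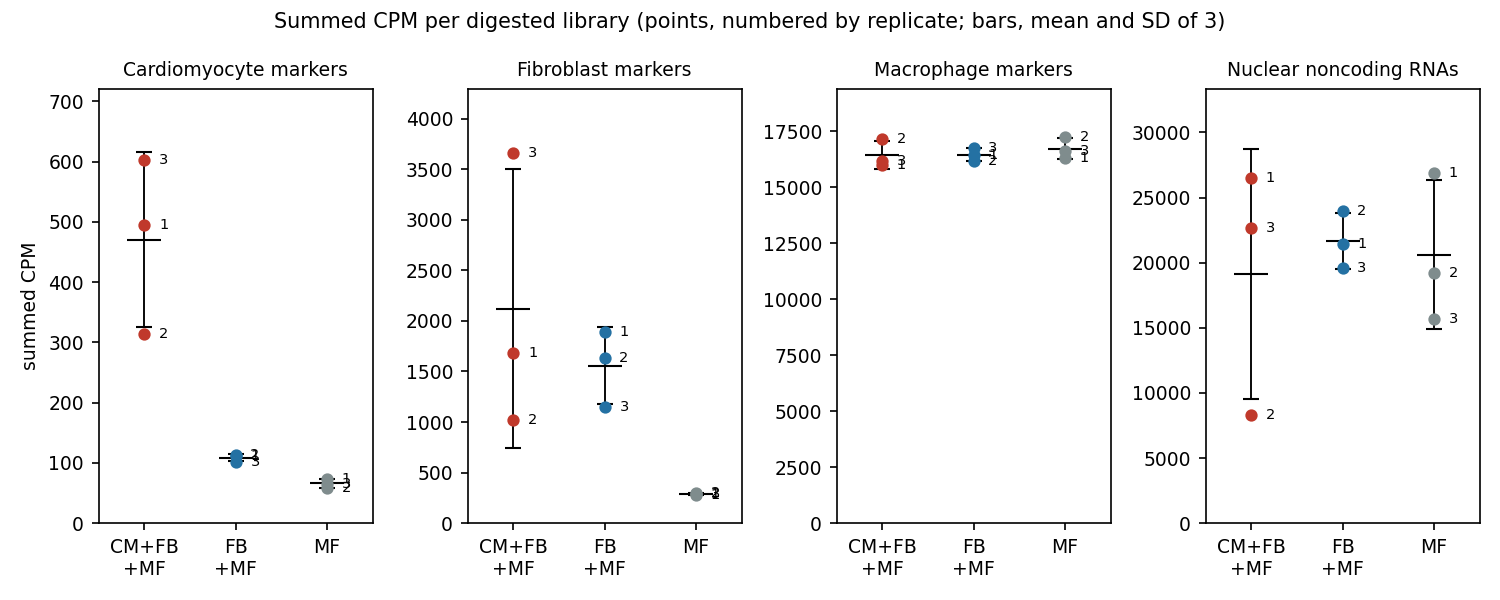
Summed CPM of 4 gene lists (y axes, from 0) in each digested library of CM+FB+MF, FB+MF and MF (x axes); points are libraries numbered by replicate and bars show the mean and SD of 3. Cardiomyocyte markers sat at 314 to 602 in CM+FB+MF against 101 to 112 in FB+MF, fibroblast markers overlapped between those groups, macrophage markers were level, and CM+FB+MF replicate 2 was lowest in nuclear noncoding RNAs, a list chosen after its values were seen.

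With cardiomyocytes in the mix, transcripts of the contractile apparatus were higher and no gene was called lower. By edgeR's quasi-likelihood test with Benjamini-Hochberg adjustment at 0.05, 31 of 12960 genes (0.239%) were called, all of them higher in CM+FB+MF. The count of genes called lower was 0, and DESeq2 also called 0. With an unadjusted edgeR p under 0.05 there were 120 lower and 201 higher genes, together fewer than that threshold gives by chance. The smallest adjusted p among genes with a lower value was 0.324. The highest called genes in CM+FB+MF were TTN, MYH6, MYH7, ACTC1 and TNNT2, which encode titin, both cardiac myosin heavy chains, cardiac actin and cardiac troponin T.

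All 31 called genes were rich in cardiomyocytes, meaning at least 8 times higher in CPM in the sorted CM+FB cardiomyocytes than in digested MF. The measure compares with macrophages only, so genes of fibroblasts can meet it. COL1A1, at 725 CPM in the cardiomyocytes and 0.119 CPM in MF, is rich by it. Of the tested genes, 792 were rich by this measure, and 761 of them were not called. Among the 12168 others, 75 of them not in the cardiomyocyte table, 0 were called. In each of the 31 genes the 3 CM+FB+MF libraries lay above the 3 FB+MF libraries, which held for 3.82% of all tested genes. A limit applies to these counts: 28 of the 31 passed the filter on low counts only through the CM+FB+MF libraries and so had to differ, which leaves 3 that passed through FB+MF or MF. Without CM+FB+MF replicate 2 the call count was 72, all higher, with all 31 among them. It was 21 without CM+FB+MF replicate 1 and 20, 21 and 19 without FB+MF replicates 1, 2 and 3.

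**Figure D2:**
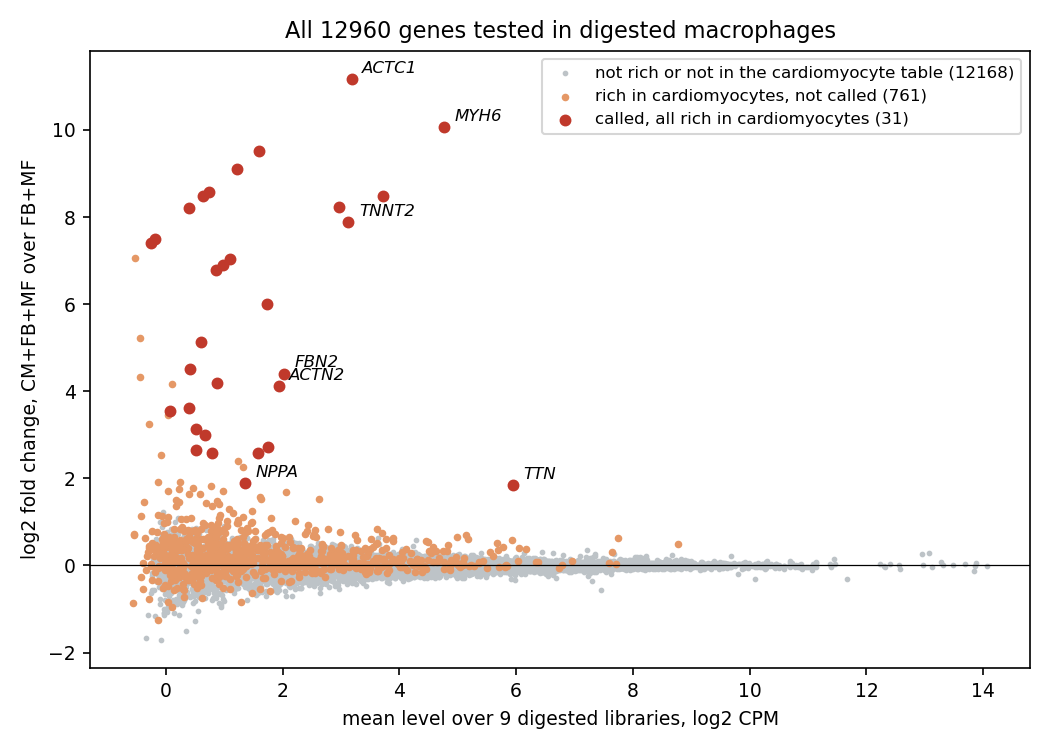
Log2 fold change of CM+FB+MF over FB+MF (y axis) against the mean level over the 9 digested libraries in log2 CPM (x axis) for all 12960 tested genes. The 31 called genes lie above the zero line and all are rich in cardiomyocytes; fitted fold changes of genes with 0 to 3 counts in FB+MF depend on the prior count and are not sizes to be read off.

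Both heavy chains of the thick filament were called. MYH6, the alpha myosin heavy chain typical of atrial muscle, stood at 87.2, 52.9 and 102 CPM in CM+FB+MF replicates 1 to 3 against 0.195, 0 and 0 CPM in FB+MF. The ratio of summed levels was 1251 with a 95% counting interval of 346 to 10335. MYH7, the beta heavy chain of ventricular and slow muscle, stood at 42.2, 23.5 and 49.6 CPM against 0.292, 0 and 0 CPM. Its ratio was 396 (counting interval 135 to 1924). Intervals of this kind cover counting error only. MYH6 and MYH7 are near-identical neighbours whose reads can be assigned to either, so the split between them is uncertain.

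The myosin light chains moved with the heavy chains. MYL7, the atrial regulatory light chain, stood at 21.9, 14.5 and 31.6 CPM against 0.0973, 0.0970 and 0 CPM, a ratio of 350 (counting interval 96.6 to 2896). MYL4, the atrial essential light chain, stood at 8.31, 6.03 and 10.8 CPM with 0 counts in every FB+MF and MF library. Set against a floor of 3 counts over the FB+MF group, it was at least 86.8-fold higher. MYL3, the ventricular essential light chain, was at least 45.1-fold higher by the same floor, with 3.10 to 5.83 CPM. Replicate 2 was the lowest and replicate 3 the highest library for all 3 light chains.

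Thin filament genes followed the same order of libraries. ACTC1, cardiac alpha actin, stood at 25.5, 17.8 and 35.8 CPM with 0 counts in FB+MF and MF, at least 272-fold higher. TNNT2, which anchors the troponin complex to tropomyosin, stood at 25.2, 18.1 and 32.4 CPM against 0.0973, 0.0970 and 0.0923 CPM. Its ratio was 261 (counting interval 89.0 to 1268). The calcium-binding subunit TNNC1 was at least 34.7-fold higher, with 2.93 to 3.98 CPM. TNNI1, the slow skeletal inhibitory subunit that fetal heart also uses, stood at 9.85, 6.27 and 10.8 CPM against 0.195, 0.194 and 0 CPM, a log2 fold change of 6.02 ± 0.50 (SE; adjusted p = 0.00012, edgeR).

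The start sites of 4 of the called genes are shown because the genes moved together. ACTC1, MYL7 and HSPB7 hold letters of known muscle motifs there, while the bases printed for MYH6 hold only TATAAA of the letters searched. For a gene with several windows, the window with the most motif matches is printed. The sequences are RefSeq promoter windows of GRCh38.p14, 110 bases that end just before the annotated start, read on the strand of the gene, which is the minus strand for all 4. They are ACTC1 at chr15:34795550-34795659, MYL7 at chr7:44141333-44141442, MYH6 at chr14:23408274-23408383 and HSPB7 at chr1:16018044-16018153. Capitals mark a CArG box (the site of serum response factor) in ACTC1 and MYL7, a MEF2 site in HSPB7 and TATAAA in ACTC1, HSPB7 and MYH6.
ACTC1: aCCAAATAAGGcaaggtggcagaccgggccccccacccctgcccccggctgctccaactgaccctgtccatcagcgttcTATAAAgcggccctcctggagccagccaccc
MYL7: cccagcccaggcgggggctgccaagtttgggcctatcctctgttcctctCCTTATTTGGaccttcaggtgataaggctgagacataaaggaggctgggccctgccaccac
HSPB7: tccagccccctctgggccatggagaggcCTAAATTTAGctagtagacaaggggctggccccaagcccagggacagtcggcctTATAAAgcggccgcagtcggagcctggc
MYH6: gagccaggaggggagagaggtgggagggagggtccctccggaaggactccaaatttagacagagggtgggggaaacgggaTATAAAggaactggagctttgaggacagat
RefSeq windows matched 19 of the 31 called genes. On either strand of the full windows, from 250 bases before to 50 after the start, a CArG box was present in 4 of the 19 (ACTC1, LDB3, MYL7 and MYOM1) and, counted by gene in the same way, in 1.56% of the 9593 tested genes with a window. A MEF2 site was present in 4 (HSPB7, SYNPO2L, TTN and XIRP1) against 2.22% of tested genes, and TATAAA in 4 against 8.39%. The GATA-type letters AGATAA were present in 4 against 7.81%, and the TEAD-type letters CATTCC in 8 against 15.1%. Of all 35116 single windows, 1.29% held a CArG box, 2.99% a MEF2 site, 11.5% TATAAA, 10.3% AGATAA and 14.0% CATTCC. The letters TATAAA can lie within a MEF2 site or a CArG box, so these counts are not exclusive. A match describes letters in a window and is not evidence that a factor bound there.

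Z-disc, M-band and titin-associated genes made up another block of called genes. TTN stood at 136, 79.9 and 131 CPM against 31.4, 35.8 and 29.3 CPM in FB+MF, and MF held 28.1 to 41.5 CPM. It rose by a log2 fold change of 1.85 ± 0.18 (adjusted p = 0.00044), the smallest of the 31, from a level already present in macrophages without cardiomyocytes. ACTN2, the actin cross-linker of the Z-disc, stood at 9.76, 7.41 and 11.6 CPM against 0.779, 0.582 and 0.277 CPM, a log2 fold change of 4.12 ± 0.30 (adjusted p = 4.9e-05). NEBL (nebulette) and CSRP3 (muscle LIM protein) had 0 counts in FB+MF and were at least 65.0-fold and at least 19.9-fold higher. LDB3, a PDZ-LIM protein that binds alpha-actinin, had a ratio of 39.0 (counting interval 13.03 to 191). SYNPO2L, MYOM1, XIRP1 and MYO18B had log2 fold changes between 2.58 ± 0.43 (MYO18B) and 4.52 ± 0.53 (SYNPO2L). MYOM1 cross-links thick filaments at the M-band. TTN overlaps the antisense gene TTN-AS1, and no source used here says whether counting used strand, so reads of the pair may not be told apart.

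**Figure D3:**
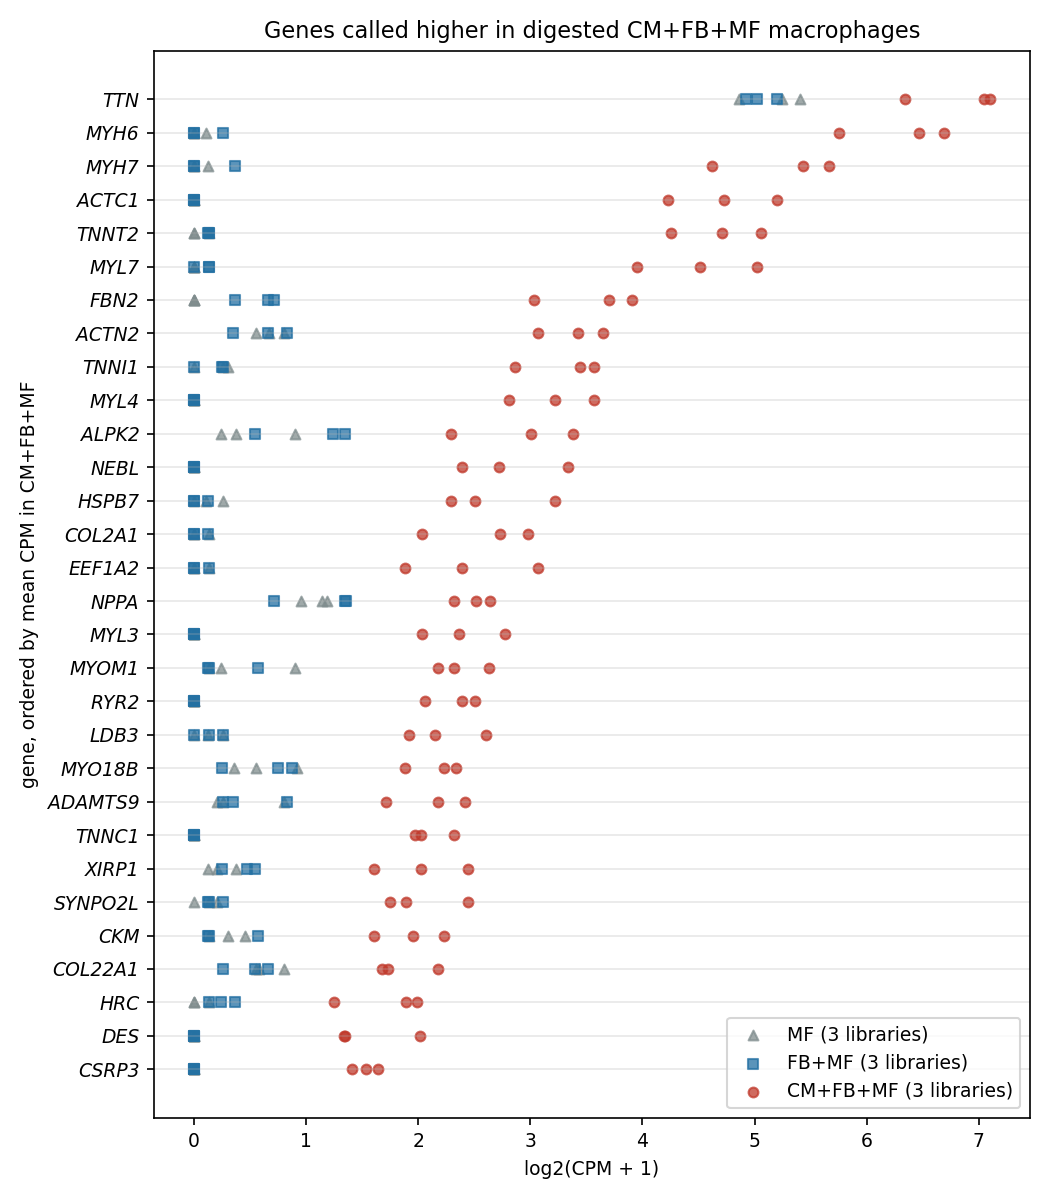
Level of 30 of the 31 called genes in log2(CPM + 1) (x axis), 1 gene per line ordered by mean CPM in CM+FB+MF, in the 3 libraries each of CM+FB+MF, FB+MF and MF. The CM+FB+MF points lie to the right of the others in all 30 genes shown, and TTN alone starts above 28 CPM in FB+MF and MF.

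Over the sarcomere and Z-disc list of 35 genes, 34 were in the table, 24 passed the filter and 19 were called higher, 0 lower. Of the 24, 7 passed through FB+MF or MF. The median log2 fold change of the 24 was 4.46 with the genes at 0 in FB+MF set at their bound, beside 5.9e-06 over all tested genes. Over the 20 cardiomyocyte markers, 16 passed the filter (4 through FB+MF or MF) and 13 were called higher, with a median of 5.44 at the bound. The markers PLN, TPM1 and MYBPC3 were tested and not called. PLN (phospholamban, the brake on the calcium pump) stood at 2.98, 1.96 and 2.04 CPM against 0.584, 0.873 and 0.739 CPM (log2 fold change 1.65 ± 0.33, adjusted p = 0.109). MYBPC3 (cardiac myosin-binding protein C) stood at 16.4, 5.79 and 16.9 CPM against 7.20, 8.34 and 8.22 CPM, and replicate 2 lay below all FB+MF libraries (0.70 ± 0.32, adjusted p = 1.00). Without replicate 2 MYBPC3 was called at 1.06 and TPM1 (tropomyosin) at 0.81, and so was MYOZ2, a calcineurin-binding protein of the Z-disc.

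The other 4 markers did not pass the filter. MYL2, the ventricular regulatory light chain, had 5, 6 and 8 counts in CM+FB+MF and 0 in every FB+MF library. TNNI3, the adult cardiac troponin I, had 7, 12 and 11 counts against 0, and the transcription factor NKX2-5 had 6, 18 and 19 against 0. NPPB, which encodes the natriuretic peptide BNP, had 6, 23 and 42 counts against 5, 1 and 1. At 0.542, 1.87 and 3.89 CPM, NPPB sat beside a mean of 13.04 CPM in the sorted cardiomyocytes, while MYL2 at 0.452 to 0.741 CPM sat beside 976 CPM.

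Genes of calcium handling, energy and hormone roles were called in small numbers. RYR2, the calcium release channel of the sarcoplasmic reticulum, stood at 4.70, 3.18 and 4.26 CPM with 0 counts in FB+MF, at least 42.0-fold higher. HRC, a calcium-binding protein of the same compartment, rose by 3.54 ± 0.54 on the log2 scale (adjusted p = 0.014). These were 2 of the 16 tested genes of the 28 in the calcium handling and excitation list, whose median was 0.17. HCN4, a pacemaker channel, and JPH2, which holds the reticulum to the surface membrane, were called without replicate 2. Both were also called without the filter on low counts, and HCN4 with DESeq2 (adjusted p = 0.0012). In the list of 14 cardiac energy and creatine genes, CKM (muscle creatine kinase) was the 1 called of 9 tested, at 3.62 ± 0.52. ENO3 (muscle enolase) and MB (myoglobin) were called without replicate 2. With all libraries kept, both were also called with DESeq2 (adjusted p = 0.0035 and 0.0022) and without the filter on low counts. NPPA, which encodes atrial natriuretic peptide, stood at 5.24, 3.99 and 4.72 CPM against 1.56, 1.55 and 0.646 CPM (1.89 ± 0.30, adjusted p = 0.020), and it overlaps CLCN6, a gene at 48.8 CPM in CM+FB+MF. The call of NPPA was lost in 7 of the 12 settings tried. Of 17 cardiac transcription factors, 14 were in the table, 7 were tested and 0 were called. The nearest was MYOCD, the muscle co-activator of serum response factor, at 2.62, 1.14 and 3.80 CPM against 0.195, 0.194 and 0 CPM (adjusted p = 0.075). It was called with DESeq2 (adjusted p = 0.0031), without the filter on low counts (0.018) and without CM+FB+MF replicate 2 (0.0024). NKX2-5 was called with DESeq2 (adjusted p = 0.0091) and without the filter (0.037), and ANKRD1 without replicate 2.

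The called genes were not all contractile. HSPB7, a small heat shock protein of heart muscle, stood at 4.70, 3.91 and 8.33 CPM against 0, 0 and 0.0923 CPM, a ratio of 175 (counting interval 31.0 to 6942). EEF1A2, the elongation factor isoform of muscle and neurons, had a ratio of 147 (26.0 to 5851), and DES (desmin, the muscle intermediate filament) was at least 21.2-fold higher. ALPK2, a kinase, rose by 2.59 ± 0.45 on the log2 scale. FBN2 (fibrillin-2, a microfibril protein) stood at 12.02, 7.17 and 14.0 CPM against 0.584, 0.291 and 0.646 CPM and was at 0 in all MF libraries (4.41 ± 0.36, adjusted p = 0.00044). COL2A1, known as the collagen of cartilage, stood at 6.87, 3.10 and 5.65 CPM against 0, 0 and 0.0923 CPM, a ratio of 161 (28.5 to 6396). COL22A1, a collagen of tissue junctions, rose by 2.66 ± 0.40 on the log2 scale, and ADAMTS9, a protease of the extracellular matrix, by 2.99 ± 0.51. The sorted cardiomyocytes held 6104 CPM of FBN2, 846 CPM of COL2A1, 452 CPM of COL22A1 and 421 CPM of ADAMTS9. Of the values nearest to the threshold, DES, ADAMTS9 and ALPK2 lay inside it (adjusted p = 0.037, 0.038 and 0.038) and NCAM1, DOK4 and MYOCD outside it (0.059, 0.063 and 0.075). Without CM+FB+MF replicate 2 the latter were called (adjusted p = 0.010, 0.00076 and 0.0024). With all libraries kept, DESeq2 also called NCAM1, DOK4 and MYOCD (adjusted p = 0.025, 0.0013 and 0.0031). The calls of ALPK2, DES, ADAMTS9 and COL22A1 were lost in 7, 6, 6 and 5 of the 12 settings tried.

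Among the 31 called genes, the size of the rise went with the level in the sorted cardiomyocytes. For each called gene the CPM difference between CM+FB+MF and FB+MF was set against its mean CPM in the CM+FB cardiomyocytes, a level from a separately made table, so the share is a description. It ran from 0.153% to 0.738% with a median of 0.270%. MYH6 was at 0.153%, XIRP1 at 0.155% and TTN at 0.175%, and MYL7 was at 0.542%, COL2A1 at 0.611%, ADAMTS9 at 0.706% and NPPA at 0.738%. The called genes spanned 410 to 52827 CPM in the cardiomyocytes. Of these 31 genes, 28 passed the filter on low counts only through CM+FB+MF. Small shares at low cardiomyocyte levels could therefore hardly enter, which narrows the range. Rich genes that were not called lay inside it (MYBPC3 at 0.165%, PLN at 0.215%) and outside it (SLC2A1 at 6.77%, COL1A1 at 19.1%).

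**Figure D4:**
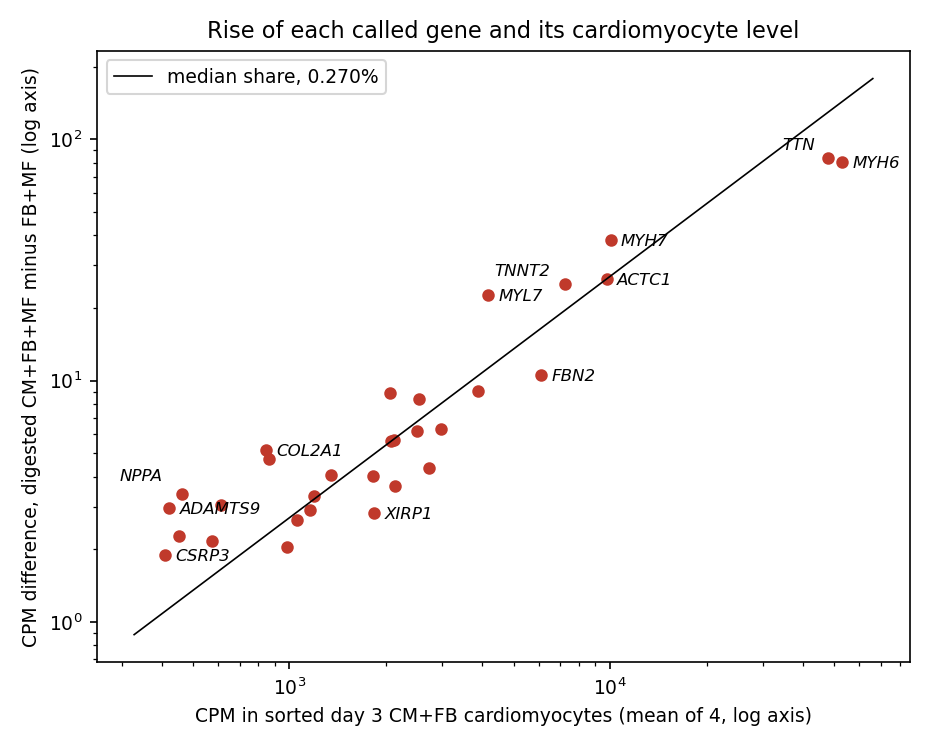
CPM difference between digested CM+FB+MF and FB+MF (y axis, log) against mean CPM in the 4 sorted CM+FB cardiomyocyte libraries (x axis, log) for the 31 called genes, with a line at their median share of 0.270%. The points follow the line from CSRP3 at the lower left to TTN and MYH6 at the upper right, within shares of 0.153% to 0.738%. Small shares at low cardiomyocyte levels could hardly pass the filter on low counts, which narrows this range.

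The rich genes that were tested are described by their level in the cardiomyocytes. Of 387 rich genes at 10 to 100 CPM in the cardiomyocytes 0 were called, with a median log2 fold change of 0.14. Of 261 at 100 to 1000 CPM 9 were called, with a median of 0.21. Of 48 at 1000 to 10000 CPM 19 were called, with a median of 0.90, and all 3 above 10000 CPM (MYH6, MYH7 and TTN) were called. Of the 761 rich genes that were not called, 556 (73.1%) had a log2 fold change above 0. These values include genes that passed the filter only through CM+FB+MF and so had to be higher there. Among the 641 rich genes that passed through FB+MF or MF, 3 were called and 457 (71.3%) had a log2 fold change above 0. Their median was 0.12 for 330 genes at 10 to 100 CPM in the cardiomyocytes, 0.14 for 227 at 100 to 1000 CPM and 0.50 for 29 at 1000 to 10000 CPM. This set includes genes that FB+MF held without cardiomyocytes, such as COL1A1 and COL5A1 at means of 255 and 40.1 CPM there. The part of fibroblast RNA in these values was not tested. In the 12093 genes of the cardiomyocyte table that were not rich, the median was -0.0036 and 90% of values lay between -0.26 and 0.24. COL18A1, ENO3 and ANKRD1 are examples of rich genes that were tested and not called. Their log2 fold changes were 0.83 ± 0.25, 2.27 ± 0.47 and 0.84 ± 0.30, and all 3 were called without CM+FB+MF replicate 2.

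Summed over the list, cardiomyocyte markers stood at 494, 314 and 602 CPM in CM+FB+MF against 112, 112 and 101 CPM in FB+MF and 58.0 to 74.0 CPM in MF. The groups did not overlap, and the difference was 2.06 on the scale of log2(CPM + 1), a 4.16-fold change. The exact two-sided permutation test gave p = 0.1, the smallest that 3 against 3 libraries allow. TPM1, which fibroblasts also express, made up most of the FB+MF level, with 62.1 to 68.6 CPM there, and without it the difference was 3.04. In bulk RNA a smaller number of cells of a type and less RNA per cell cannot be told apart.

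Fibroblast markers varied between libraries of 1 group as much as between groups. Their summed level was 1685, 1018 and 3664 CPM in CM+FB+MF against 1895, 1635 and 1147 CPM in FB+MF, where MF held 275 to 299 CPM. The difference of 0.27 on the log2 scale had an exact permutation p = 0.8, and it was -0.22 without CM+FB+MF replicate 3 and 0.70 without replicate 2. COL1A1, a chain of the main fibrillar collagen, stood at 300, 151 and 728 CPM against 316, 282 and 167 CPM, and at 0 to 0.280 CPM in MF. COL1A2, its partner chain, stood at 238, 160 and 448 CPM against 265, 232 and 182 CPM. Of 17 fibroblast markers 14 were tested and 0 called. Of the 30 genes in the collagen and matrix list 27 were tested and 1 was called (FBN2), with a median of 0.43. The called genes COL2A1, COL22A1 and ADAMTS9 are not in this list. COL18A1 and ELN (elastin) were called without CM+FB+MF replicate 2.

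Cardiomyocyte and fibroblast transcripts shared their order over the CM+FB+MF libraries, lowest in replicate 2 and highest in replicate 3. Of the 31 called genes, 28 were lowest in replicate 2 and 23 were highest in replicate 3. The part of the fibroblast RNA and of the nuclear RNA of replicate 2 in the calls was not tested. Without replicate 2 the extra 41 calls were all rich in cardiomyocytes against MF, and they also included FST, ELN and ABI3BP at 0.914, 3.47 and 7.44 CPM in the cardiomyocytes. Without replicate 2 and MF replicate 3 together, 99 genes were called, 96 higher and 3 lower. The 3 lower genes were RPS6, RN7SK and RMRP, with log2 fold changes of -0.20, -0.24 and -0.24. Of the 68 extra genes 64 were rich in cardiomyocytes, and NABP1 was the 1 higher gene that was not, at 0.23.

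Genes of macrophage function were level between the groups. The summed level of macrophage markers was 16018, 17146 and 16193 CPM in CM+FB+MF and 16460, 16163 and 16776 CPM in FB+MF (exact permutation p = 1), with libraries interleaved. CSF1R, the receptor that keeps macrophages alive, stood at 523, 513 and 494 CPM against 552, 499 and 531 CPM, a log2 fold change of -0.043 ± 0.051. CD14 was at -0.029 ± 0.062 and PTPRC at 0.050 ± 0.056. Of 22 macrophage markers 22 were tested and 0 called, beside 0.239% of all tested genes, with a median of 0.0078.

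Stress, cytokine and uptake lists gave the same count. Over all tested genes 0.239% were called, so a count of 0 in lists of this size is near that share. The same holds for every other list with a count of 0. Of the tested members 0 were called among 20 immediate early genes (median -0.018), 12 heat shock genes (0.0055), 19 inflammatory cytokine and NF-kB genes (0.040), 20 interferon-stimulated genes (0.030) and 11 MHC class II genes (0.097). The count was also 0 among 23 efferocytosis genes (0.010), 20 phagocytic and pattern receptors (0.0069), 34 lysosomal genes (0.018) and 18 resident macrophage genes (-0.0027). Among genes of metabolism it was 0 of 16 for cholesterol efflux (0.034), 0 of 21 for cholesterol synthesis (-0.017), 0 of 22 for glycolysis and hypoxia (0.041) and 0 of 46 for oxidative phosphorylation (0.045). SLC2A1 and VEGFA, a glucose transporter and a growth factor induced by low oxygen, were the members of the glycolysis list with the largest log2 differences. SLC2A1 stood at 5.06, 3.18 and 10.8 CPM against 1.85, 3.10 and 1.39 CPM (log2 fold change 1.58 ± 0.45, adjusted p = 0.95). VEGFA stood at 6.78, 3.91 and 14.0 CPM against 3.70, 4.07 and 4.34 CPM (1.01 ± 0.36, adjusted p = 1.00). Both are rich in cardiomyocytes against MF. Both were also higher in FB+MF than in MF, which held means of 0.248 and 1.24 CPM, and the source of their rise was not tested. Without replicate 2 both were called, at 1.90 and 1.35. The count was 0 of 26 for cell cycle genes (-0.0060), 0 of 32 for cytosolic ribosomal proteins (0.063), 0 of 17 for stress and p53 genes (-0.016) and 0 of 14 for YAP and TGF-beta targets (0.19), where ANKRD1 was called without replicate 2.

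Markers of other cell types were low or level. Of 8 smooth muscle markers 6 were tested and 1, DES, was called, with a median of 0.55. Endothelial markers summed to 402 ± 31 CPM in CM+FB+MF and 398 ± 16 CPM in FB+MF (SD, n = 3), with 0 of 3 tested markers called. Epicardial markers summed to 9.82 ± 2.26 and 9.78 ± 1.35 CPM, and pluripotency markers to 110.2 ± 3.88 and 116 ± 3.46 CPM. The marker lists for neural, erythroid, granulocyte and endoderm cells each stayed at or under 2.89 CPM in all 6 libraries. The lymphocyte list had 1 tested member, NCAM1, which the cardiomyocytes hold at 445 CPM.

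Single genes of these lists differed in how far their groups lay apart. MFGE8, a bridging protein in the uptake of dying cells, stood at 3.25, 2.69 and 5.00 CPM against 1.56, 1.65 and 1.85 CPM, with no overlap (1.10 ± 0.33, adjusted p = 1.00), and at 196 CPM in the cardiomyocytes. LDHA, lactate dehydrogenase, stood at 89.3, 86.9 and 98.0 CPM against 85.2, 78.9 and 82.7 CPM (0.16 ± 0.06, adjusted p = 1.00). HLA-DPA1, an MHC class II chain, stood at 19.9, 22.8 and 20.8 CPM against 19.6, 19.1 and 17.5 CPM. SLC40A1, the iron exporter of macrophages, stood at 299, 355 and 287 CPM against 294, 270 and 297 CPM, and the chemokine CCL3 at 3.79, 4.24 and 4.54 CPM against 3.50, 3.01 and 3.88 CPM. Over all tested genes the 95% interval of a log2 fold change reached a median of 0.25 to either side. A call count of 0 in a list therefore does not show that its genes were equal. The width is for a single gene before adjustment, and a call after adjustment needed a larger change for a typical gene. SMAD7 at 0.50 ± 0.16 and PDK1 at 0.45 ± 0.12 had no overlap between the groups and were not called.

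The same comparison in Biowire macrophages on day 14 shares no library with the digested one. There 4949 of 13952 tested genes were called (35.5%), 2285 of them higher (16.4%). Of the 31 genes, 30 were tested in the Biowires and 28 were called higher there. The exceptions were COL22A1 (log2 fold change -0.11 ± 0.67) and NPPA (0.47 ± 0.74), and ADAMTS9 was not tested there. Summed cardiomyocyte markers ran from 1343 to 3104 CPM in Biowire CM+FB+MF and from 49.4 to 88.0 CPM in Biowire FB+MF.

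The difference between the changes was tested as an interaction over 14381 genes shared by both tables, of which 4081 were called (28.4%). Of the 31 genes 4 were called. The change of TTN was larger in the Biowires, at 1043 ± 536 against 48.6 ± 23.1 CPM (SD, n = 3), by 2.55 ± 0.47 on the log2 scale (adjusted p = 0.00044). ACTN2 was larger by 2.15 ± 0.76 (adjusted p = 0.039) and XIRP1 by 3.76 ± 1.05 (adjusted p = 0.012), with 3 counts of XIRP1 over the Biowire FB+MF group. COL22A1 was smaller by 2.76 ± 0.80 (adjusted p = 0.013), with 1.503 ± 1.28 CPM in Biowire CM+FB+MF and 1.60 ± 0.53 CPM in Biowire FB+MF. Genes without counts in an FB+MF group, ACTC1, MYL3, RYR2, TNNC1 and CSRP3 among them, give no usable interaction value.

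**Figure D5:**
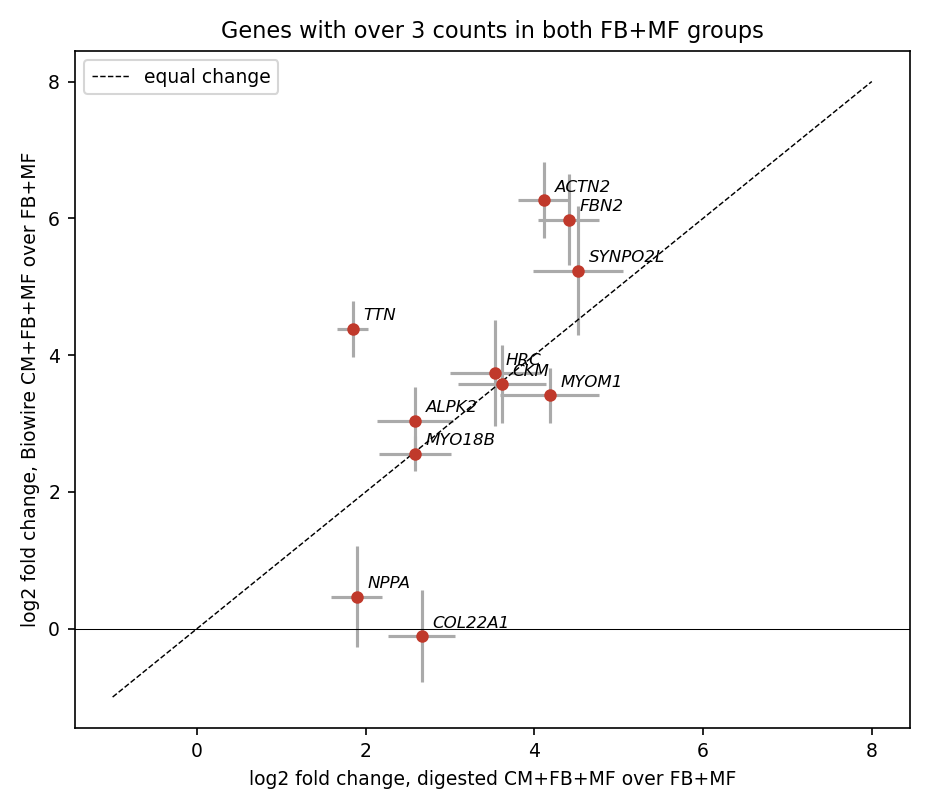
Log2 fold change of CM+FB+MF over FB+MF in Biowire macrophages (y axis) against that in digested controls (x axis) for 11 called genes with over 3 counts in both FB+MF groups; bars are SE and the dashed line marks equal change. TTN and ACTN2 lie above the line, COL22A1 and NPPA lie near 0 on the Biowire axis, and the interaction was called for TTN, ACTN2 and COL22A1.

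For lists of macrophage function the levels of both settings are given side by side. Resident macrophage genes summed to 11307 ± 326 CPM in digested CM+FB+MF and 11324 ± 139 CPM in digested FB+MF (SD, n = 3). In the Biowires they ran from 14032 to 16273 CPM and from 5622 to 6977 CPM. Immediate early genes summed to 2937 ± 99 and 2973 ± 39 CPM in the digested groups, and ran from 1281 to 1992 and from 712 to 882 CPM in the Biowires. Efferocytosis genes summed to 11128 ± 142 and 11216 ± 23 CPM in the digested groups, and ran from 17183 to 18122 and from 11808 to 12364 CPM in the Biowires. The interaction of whole lists was not tested, and the settings also differ in culture time and table.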

How the data were processed

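Total RNA of sorted macrophages was measured in 9 digested control libraries, with 9 Biowire macrophage and 4 cardiomyocyte libraries for reference. The authors deposited whole-number read counts per gene for each setting in separate tables. The submitters' processing notes name build hg19 and list STAR (2.7.9a), HTSeq (0.11.0), R (4.3.2) and DESeq2 as tools, and a Takara kit for stranded libraries of total RNA was used, per the labels. Whether counting used strand is not stated in these sources. Of the names in the cardiomyocyte counts, 28 had been turned into dates and were left out.

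The deposited counts entered edgeR 4.0.16 under R 4.3.3 unaltered (TMM, filterByExpr, quasi-likelihood F test, two-sided, Benjamini-Hochberg at 0.05). Digested columns were tied to their groups by the mixture in the column name and the workbook that the labels name, and keep the column's number. All 9 digested libraries entered 1 fit and share its spread. CPM is the count scaled to a common library total. A group with 0 counts was set at a floor of 3 over its libraries together, and a ratio against 1 to 3 counts has a 95% exact binomial interval. Marker sums were compared as log2(CPM + 1) by exact permutation over libraries. Same-numbered CM+FB+MF and FB+MF libraries did not deviate together (correlations -0.049, -0.24 and -0.24), so the numbers were not used as pairs. No 2 replicates agreed within counting noise: chi-square per degree of freedom was 3.95 to 21.8 in CM+FB+MF and 2.39 to 4.86 in FB+MF.

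The members, the gene lists and the rule for named genes were chosen with earlier results of these data known. The rule took the 12 largest rises and 8 largest falls past the threshold with no overlap and at least 5 CPM, the same among genes not rich in cardiomyocytes, all cardiomyocyte markers, CD14, PTPRC, CSF1R, COL1A1 and COL1A2, and up to 4 members of each list by p. It found no fall and no gene of the not-rich class. Called genes outside it, and genes called only under an alternative, were named after their values were seen. The values of 1 called gene are not reported here, though it counts among the 31. Overlapping genes were read by name from GENCODE, and promoter windows from RefSeq. Simulated counts held 200 changed genes (12829 genes in the step). In them the test found 70.1% of genes changed 1.5 times, 69.7% of those changed 2 times and 95.4% of those changed 4 times. Of its calls there, 3.73% were false. Whether these shares hold for the measured libraries, where 31 genes were called, was not tested. Alternatives were DESeq2 1.42.0, other scalings and filters, fewer groups, a minimum fold, the replicate block, and each CM+FB+MF or FB+MF library left out. No MF library was left out by itself.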

Additional observations from a re-analysis of the deposited data

Results flagged for a closer look

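The change with cardiomyocytes in the mix differed between Biowires and digested controls for 4 of the 31 called genes, by a test of the difference itself. The log2 difference (Biowire change minus digested change) was 2.55 for TTN, 2.15 for ACTN2, 3.76 for XIRP1 and -2.76 for COL22A1. Of all shared genes tested 28.4% passed the same threshold. Called genes with few or no counts in an FB+MF group gave interaction values with large or unusable errors, such as MYH6 at 1.02 ± 3.11. For them the lack of a call does not show an equal change.

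Among the 4 CM+FB cardiomyocyte libraries, EEF1A2 was lowest in 1 library at 837 CPM, apart from 873, 875 and 879 CPM in the others. Chance sets 1 library apart in this way in about 1 of 20 groups. The check was run on all 31 called genes and on the cardiomyocyte, fibroblast and macrophage marker sums, so such a flag can arise by chance.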

How the results depend on the processing

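The count of 31 genes called higher was 49 with DESeq2, 53 without a filter on low counts and 31 with RLE size factors. It was 30 with only the compared groups in the fit and 31 with a minimum log2 fold change of 1. With 1 library of CM+FB+MF or FB+MF left out it was 19 to 72, and leaving out a single MF library was not tried. Leaving out CM+FB+MF replicate 2 gave the 72. With CM+FB+MF replicate 2 and MF replicate 3 left out together, an alternative chosen after seeing the data, it was 96, with 3 genes called lower (99 in all), the one setting with such genes. Of the 31 genes 19 passed under all 12 settings that refitted the model. DESeq2, RLE, no filter and the fit without replicate 2 lost 0 of them, and leaving out FB+MF replicate 3 lost 12. Named genes lost in at least 1 setting were ADAMTS9, ALPK2, CKM, COL22A1, CSRP3, DES, HRC, MYO18B, MYOM1, NPPA and XIRP1. The replicate block, over numbers that the data do not show to pair the samples, gave 25 calls and lost 6 genes. With a minimum log2 fold change of 1 the Biowire count of 4949 was 2033 and the interaction count of 4081 was 1820.

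The marker sums have no call to lose, since the exact permutation test of 3 against 3 libraries cannot go below p = 0.1. Their log2 differences with 1 library left out ran from 1.85 to 2.32 for cardiomyocyte, from -0.22 to 0.70 for fibroblast and from -0.032 to 0.017 for macrophage markers, which stood at 0.0031 with TMM-scaled library sizes. The log2 fold change of COL1A1 ran from -0.18 to 1.00, of COL1A2 from -0.18 to 0.59, of CD14 from -0.070 to 0.019 and of PTPRC from -0.013 to 0.084. PTPRC was at -0.014 with CM+FB+MF replicate 2 and MF replicate 3 left out together. The cause of these changes was not tested. Genes with few counts in FB+MF have folds that depth bounds only from below.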
